A study of Homo sapiens with 3 samples.

Results

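The zinc finger genes of chromosome 19 were taken as every protein-coding row of the count table whose symbol starts with ZNF and whose gene lies on chromosome 19, which gave 249 of 58037 genes. No measured value entered that choice. Most of these genes encode Kruppel-associated box (KRAB) zinc finger proteins, in which an array of C2H2 fingers reads the DNA and the KRAB domain recruits the corepressor TRIM28, which in turn brings the histone methyltransferase SETDB1, heterochromatin proteins and the NuRD complex. The family grew by tandem duplication, so that its members stand in clusters along the chromosome, and many of its proteins bind and silence transposable elements. Its members are expressed at low levels in most tissues, which makes read depth and gene length part of any account of them.

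RNA of RWPE1 cells, an immortalized line of normal adult human prostate epithelium, was sequenced in 3 libraries, 1 for each of OLFM4-wild, OLFM4-knockout and OLFM4-active cells. The deposited design sets the other 2 against OLFM4-wild cells, and OLFM4 is a secreted glycoprotein. By the study's methods, CRISPR/Cas9 plasmids and puromycin selection gave clones with a GFP reporter, with knockout plasmids behind the OLFM4-knockout and activation plasmids behind the OLFM4-wild reporter cells, and bulk RNA came from cells sorted on GFP. How the cells labelled OLFM4-active differ in their making from the OLFM4-wild reporter cells is not given in the sources used here. There were no replicates, so no test between the groups was possible, and each difference below is a difference between 2 libraries. A difference between clones or cultures and a difference caused by OLFM4 cannot be told apart here.

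The libraries held 16309906 (OLFM4-wild), 58837147 (OLFM4-knockout) and 23224216 (labelled OLFM4-active) counts. OLFM4 itself had 214, 131 and 16 counts, or 11.8, 2.55 and 0.670 CPM (counts per 1000000 of the TMM-scaled library size), so the library labelled OLFM4-active had the lowest level of that gene. It is called the labelled-active library from here on. All 6 markers of basal prostate epithelium were present in each library, which summed to 23974 CPM in OLFM4-wild, 51834 in OLFM4-knockout and 28083 in labelled-active cells. The basal sum was carried by KRT5, KRT14 and KRT17, while TP63 was at 414, 472 and 450 CPM and KRT15 at 127, 359 and 97.2 CPM. Of the luminal keratins, KRT8 was at 282, 231 and 146 CPM and KRT18 at 177, 191 and 157 CPM in the same order. Fibroblast markers summed to between 22.9 and 34.0 CPM, endothelial markers to between 0.0837 and 0.605 CPM, and leukocyte markers to at most 0.0390 CPM. The part of these differences in the values below was not tested.

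The promoters of 6 members are shown because results below refer to them, and ZNF254 was chosen after its values were seen. Each window runs from 250 bases before to 50 bases after the RefSeq start on GRCh38.p14, printed 5′ to 3′ on the gene's own strand. Capitals mark CACGTG (an E-box), CCGGAA (the core of the ETS family motif), CCAAT (the box bound by NF-Y) or TATAAA, on either strand. The first set comes from the cluster of primate-expanded genes beside the centromere: ZNF91 (chr19:23395422-23395721, minus strand) and ZNF254 (chr19:24086937-24087236, plus strand) were expressed, and ZNF208 (chr19:22010894-22011193, minus strand) had no count in any library.
ZNF91: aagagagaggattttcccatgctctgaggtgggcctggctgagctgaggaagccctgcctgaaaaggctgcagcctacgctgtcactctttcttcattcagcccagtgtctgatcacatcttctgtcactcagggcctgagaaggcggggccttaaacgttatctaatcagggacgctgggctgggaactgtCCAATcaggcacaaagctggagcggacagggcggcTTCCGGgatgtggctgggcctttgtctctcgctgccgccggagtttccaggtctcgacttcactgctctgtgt
ZNF254: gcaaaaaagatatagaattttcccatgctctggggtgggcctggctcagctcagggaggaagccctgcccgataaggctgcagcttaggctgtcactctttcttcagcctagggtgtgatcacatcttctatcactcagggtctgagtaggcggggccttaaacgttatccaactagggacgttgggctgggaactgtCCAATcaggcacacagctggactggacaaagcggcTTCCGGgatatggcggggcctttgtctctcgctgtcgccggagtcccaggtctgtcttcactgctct
ZNF208: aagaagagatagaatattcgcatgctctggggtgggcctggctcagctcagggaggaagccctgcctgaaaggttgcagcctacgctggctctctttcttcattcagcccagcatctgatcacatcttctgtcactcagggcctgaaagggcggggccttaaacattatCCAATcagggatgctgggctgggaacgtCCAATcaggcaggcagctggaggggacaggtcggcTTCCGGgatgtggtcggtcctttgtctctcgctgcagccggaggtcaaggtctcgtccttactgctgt

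The second set is the shared region between ZNF829 (chr19:36916242-36916541, minus strand) and ZNF568 (chr19:36916082-36916381, plus strand), whose starts lie 25 bp apart and point away from each other. Both genes had lower levels in OLFM4-knockout than in OLFM4-wild cells.
ZNF829: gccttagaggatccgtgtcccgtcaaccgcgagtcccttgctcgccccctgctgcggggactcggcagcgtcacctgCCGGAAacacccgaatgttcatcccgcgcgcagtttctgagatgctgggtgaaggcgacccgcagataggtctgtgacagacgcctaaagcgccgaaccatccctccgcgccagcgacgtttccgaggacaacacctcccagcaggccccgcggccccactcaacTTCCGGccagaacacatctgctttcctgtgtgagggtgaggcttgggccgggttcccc
ZNF568: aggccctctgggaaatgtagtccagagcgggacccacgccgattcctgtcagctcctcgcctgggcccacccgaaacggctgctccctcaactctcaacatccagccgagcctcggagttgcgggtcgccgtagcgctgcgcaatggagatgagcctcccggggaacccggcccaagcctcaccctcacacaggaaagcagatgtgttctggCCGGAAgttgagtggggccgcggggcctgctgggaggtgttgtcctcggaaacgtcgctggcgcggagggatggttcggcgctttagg

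The third is the promoter of ZNF382 (chr19:36605063-36605362, plus strand), the member with the largest difference between OLFM4-knockout and OLFM4-wild cells among those with a mean of at least 1 CPM. It holds none of the marked letters. For ZNF254 and ZNF382 the RefSeq start lies inside the gene as GENCODE gives it.
ZNF382: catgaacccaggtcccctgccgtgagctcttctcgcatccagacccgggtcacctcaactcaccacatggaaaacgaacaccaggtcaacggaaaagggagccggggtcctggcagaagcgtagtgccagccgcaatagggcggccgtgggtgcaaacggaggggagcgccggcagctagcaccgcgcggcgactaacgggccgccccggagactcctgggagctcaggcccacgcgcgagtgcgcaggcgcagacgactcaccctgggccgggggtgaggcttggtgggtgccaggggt

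Detection was broad and the levels were low. At least 1 count was found for 240 members in OLFM4-wild, 239 in OLFM4-knockout and 238 in labelled-active cells, and 240, 237 and 237 when all libraries were thinned to the smallest total. Of the 249 members, 221 (88.8%) reached 1 CPM on average over the libraries, against 65.2% of all protein-coding genes, 63.1% of the other protein-coding genes of chromosome 19 and 87.6% of the ZNF genes on other chromosomes. These 221 are the members for which fold changes are counted below, out of 16600 genes of all kinds that passed the same filter. A mean of at least 2 CPM was reached by 210 members, at least 5 CPM by 156 and at least 10 CPM by 101.

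Per kilobase of exon, the members that passed had a median level of 1.84 CPM per kilobase (quartiles 0.877 and 2.995). The median was 4.98 for all protein-coding genes, 6.09 for the other protein-coding genes of chromosome 19 and 2.79 for ZNF genes elsewhere. Their median exon length of 5623 bp was close to the 5315 bp of protein-coding genes and longer than the 3764 bp of their chromosome 19 neighbours. The members' level was thus below that of each of these sets also when length was taken into account.

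Only a few members were abundant. ZNF146, a protein built almost wholly of fingers with no KRAB domain, had the highest level per kilobase, with a mean of 28.8 CPM per kilobase and 106, 113 and 138 CPM in OLFM4-wild, OLFM4-knockout and labelled-active cells. ZNF460 followed with 21.9 CPM per kilobase and 89.0, 81.3 and 93.3 CPM. ZNF121 was at 15.7 CPM per kilobase and had 75.8, 119 and 147 CPM in the same order. ZNF146 and ZNF460 were first and second in each library, while ZNF581 stood above ZNF121 in OLFM4-wild cells. ZNF581 itself came next by its mean (12.4 CPM per kilobase), and because its exons overlap CCDC106 and ZNF580 on the same strand its count is uncertain. It was followed by ZNF57, ZNF317, ZNF787, ZNF524, ZNF562 and ZNF358, between 8.63 and 6.79 CPM per kilobase. With no replicates, the order among these last 6 cannot be set against a spread between samples. The 10 members with the most counts held 20.9%, 22.1% and 24.4% of all member counts.

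At the other end, 7 members had no count in any library, and 21 more had counts with a mean under 1 CPM. The 7 were ZNF208, ZNF676, ZNF729, ZNF723 and ZNF728 in the centromere-side cluster, ZNF536, a gene known from neurons, and ZNF835. A count of 0 allowed a level of up to 0.165 CPM in OLFM4-wild, 0.0584 CPM in OLFM4-knockout and 0.126 CPM in labelled-active cells (3 counts of the scaled library), and intervals and limits of this kind cover counting error only. ZNF730 had 7, 0 and 0 counts, and its counting interval on the log2 scale ended at -2.03 for OLFM4-knockout and at -0.92 for labelled-active against OLFM4-wild cells. ZNF98 had 4, 0 and 0 counts, with interval ends of -0.90 and 0.20, the second of which includes no difference. Its near copy ZNF492 had 1, 4 and 19 counts, and since the 2 proteins are 97.9% identical, uniquely mapped reads may split between them. ZNF610 had 0, 7 and 3 counts, ZNF99 had 2, 0 and 0, and ZNF534 had 0, 1 and 0, all too few for a fold.

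The members as a whole were present in nearly equal amount in the 3 libraries. Their summed level was 2847 CPM in OLFM4-wild (95% exact interval 2823 to 2872), 2917 in OLFM4-knockout (2902 to 2932) and 3106 in labelled-active cells (3084 to 3128). The log2 ratio of the sums was 0.03 (0.02 to 0.05) for OLFM4-knockout against OLFM4-wild cells, a direction that turned to -0.32 with library totals in place of TMM scaling. It was 0.13 (0.11 to 0.14) for labelled-active against OLFM4-wild cells, where library totals gave 0.01. TMM raised the log2 fold change of every gene by 0.35, 0.11 and 0.24 over library totals in the comparisons of OLFM4-knockout with OLFM4-wild, labelled-active with OLFM4-wild and OLFM4-knockout with labelled-active cells, so the members are given beside all genes from here on.

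In OLFM4-knockout against OLFM4-wild cells the typical member was slightly lower and the typical gene slightly higher. The median log2 fold change of the 221 members was -0.11 (quartiles -0.40 and 0.24), and 96 of them (43.4%) were above 0. All 16600 genes had a median of 0.10 (quartiles -0.34 and 0.48), with 56.7% above 0. The members lay 0.21 below all genes with TMM (difference -0.207) and by nearly the same with library totals (-0.204) or without the labelled-active library (-0.203). The other 764 protein-coding genes of chromosome 19 had a median of 0.21 and the 234 ZNF genes of other chromosomes one of -0.04, so the members stood nearer to ZNF genes elsewhere than to their neighbours on the chromosome. No test of these differences was made, since genes are not replicates. In bulk RNA, fewer cells that express a gene and less of its RNA per cell cannot be told apart.

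For labelled-active against OLFM4-wild cells the members' median was 0.04, beside 0.05 for all genes, and 122 (55.2%) were above 0. That median was -0.07 with library totals. The medians of the other chromosome 19 genes and of ZNF genes elsewhere were -0.05 and -0.07. In OLFM4-knockout against labelled-active cells the members had a median of -0.06 and all genes one of 0.08, while the other chromosome 19 genes had 0.32 and ZNF genes elsewhere -0.01. The OLFM4-wild library enters the first 2 of these comparisons and the OLFM4-knockout library the first and the third, so they are not independent of one another.

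**Figure D1:**
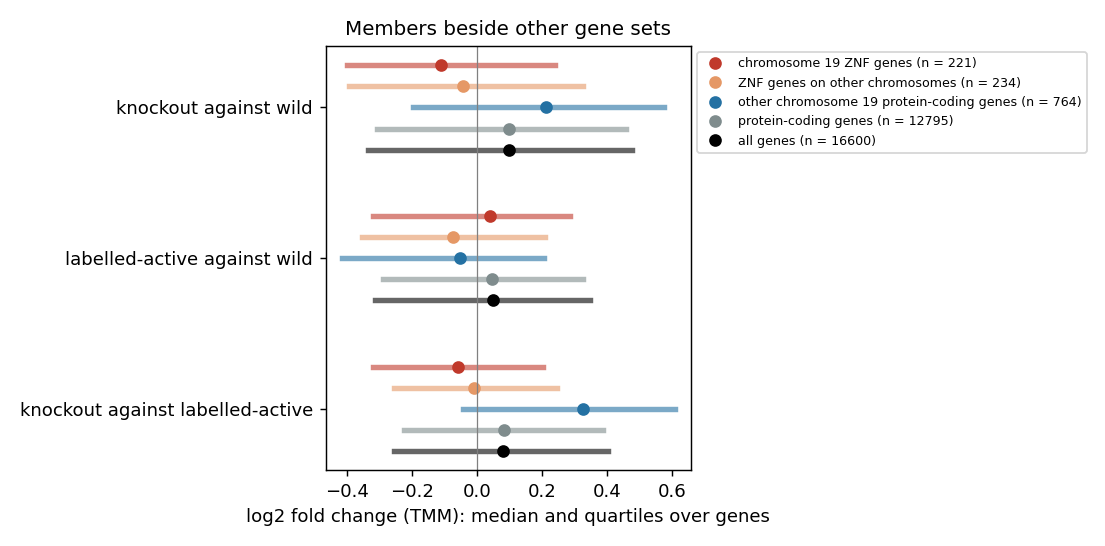
Log2 fold change (x axis, TMM scale) of 5 gene sets with a mean of at least 1 CPM in the 3 comparisons (y axis). Dots are medians and bars run between the quartiles over genes, not replicates. The red dot of the chromosome 19 ZNF genes lies at -0.11 in OLFM4-knockout against OLFM4-wild cells, left of all genes at 0.10, while the other chromosome 19 genes in blue lie at 0.21.

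Few members differed by more than 2-fold between OLFM4-knockout and OLFM4-wild cells. A log2 fold change above 1 was seen for 1 member (0.452%, against 5.77% of all genes tested) and one below -1 for 9 members (4.07%, against 7.56%). Both shares were under the background. With library totals the counts were 0 above and 27 below, and without the labelled-active library 3 above and 8 below. The count below -1 was 1 at a mean of at least 5 CPM, 15 with at least 10 counts and 19 with no filter. Beyond the log2 fold change of 2 that the study used there were 0 members above (0.663% of all genes) and 1 below (1.44%). Counting error left the interval wholly above 0 for 52 members (23.5%, against 42.4% of all genes) and wholly below 0 for 75 (33.9%, against 29.8%). The quartile range of the members, 0.64, was narrower than the 0.81 of all genes.

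Among the 9 lower members, ZNF382, a KRAB repressor known to be silenced by methylation in several tumours, had 41 counts in OLFM4-wild, 20 in OLFM4-knockout and 20 in labelled-active cells. At the depth of these libraries that was 2.26, 0.390 and 0.837 CPM, highest in OLFM4-wild cells, with a log2 fold change of -2.52 (counting interval -3.38 to -1.73) in OLFM4-knockout against OLFM4-wild cells. ZNF382 was above 1 CPM in OLFM4-wild cells alone and so passed the filter through that library. Its gene, at chr19:36604817-36634114, overlaps by its first bases the start of ZNF529 on the other strand. ZNF529 had 170, 555 and 324 counts and a log2 fold change of 0.21 (-0.04 to 0.47), so the 2 genes that share this start region stood apart.

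ZNF829 had 123, 95 and 60 counts, or 6.77, 1.85 and 2.51 CPM, highest in OLFM4-wild cells, and a log2 fold change of -1.87 (-2.27 to -1.47). ZNF568, the divergent partner printed above, whose mouse counterpart represses a placental transcript of the growth factor gene Igf2, had 61, 67 and 68 counts. Its level was 3.36 CPM in OLFM4-wild, 1.31 in OLFM4-knockout and 2.85 in labelled-active cells, and its log2 fold change -1.36 (-1.89 to -0.84). The partners thus differed in the third library, where ZNF829 was low and ZNF568 close to its level in OLFM4-wild cells. The log2 fold change of labelled-active against OLFM4-wild cells was -1.42 (-1.90 to -0.97) for ZNF829 and -0.24 (-0.76 to 0.28) for ZNF568.

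ZNF93, which binds and represses LINE elements, had 64, 63 and 44 counts, or 3.52, 1.23 and 1.84 CPM, and a log2 fold change of -1.52 (-2.05 to -0.996). ZNF90, its neighbour in the same cluster, had 308, 426 and 368 counts, or 16.95, 8.30 and 15.4 CPM, and -1.03 (-1.25 to -0.81). OLFM4-knockout was the lowest of the 3 libraries for both. For ZNF93, though, its interval against labelled-active cells, -1.16 to 0.004, included 0. Labelled-active against OLFM4-wild cells gave -0.93 (-1.52 to -0.36) for ZNF93. ZNF404 had the shape of ZNF90, low in OLFM4-knockout cells alone, with 48, 62 and 62 counts, or 2.64, 1.21 and 2.59 CPM. Its log2 fold change was -1.13 (-1.70 to -0.55). ZNF433 had 139, 189 and 80 counts, or 7.65, 3.68 and 3.35 CPM, and -1.06 (-1.38 to -0.73), with both other libraries under OLFM4-wild. ZNF221 and ZNF442, named after their values were seen because they complete the 9, had 35, 32 and 19 counts (-1.63) and 40, 41 and 23 counts (-1.46). Of the 9, ZNF568, ZNF90, ZNF404 and ZNF433 have exons that overlap another gene on the same strand, so their counts are uncertain. Such overlap was present for 84 of the 221 members tested.

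The 1 member above the 2-fold line was ZNF787, with 358, 2063 and 586 counts, or 19.7, 40.2 and 24.5 CPM, and a log2 fold change of 1.03 (0.87 to 1.19). ZNF574 stood just inside the line, at 18.5, 36.8 and 34.9 CPM and 0.99 (0.82 to 1.16). ZNF584 was at 14.8, 28.9 and 23.7 CPM and 0.97 (0.78 to 1.16). OLFM4-wild was the lowest library for each of the 3. They were chosen for the largest positive values in this comparison, so OLFM4-knockout standing above OLFM4-wild follows from the choice. ZNF324B followed with 0.87 (0.62 to 1.14) and ZNF416 with 0.84 (0.41 to 1.33). ZNF816-ZNF321P, a readthrough gene that shares its exons with ZNF816 and ZNF321P and so has an uncertain count, had 49, 252 and 74 counts and 0.85 (0.42 to 1.34).

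**Figure D2:**
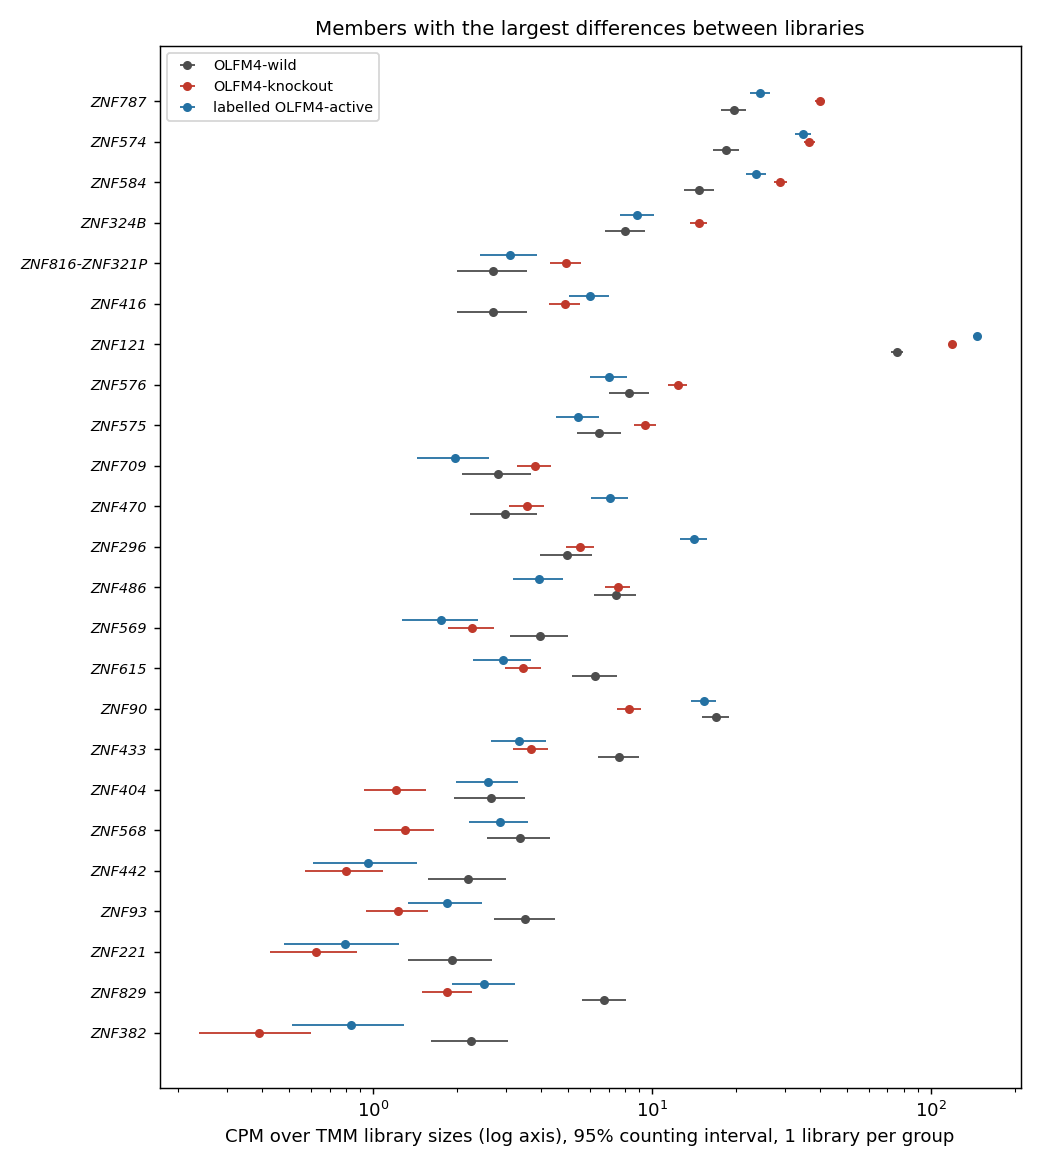
Level of 24 members in CPM (x axis, log scale) in OLFM4-wild (grey), OLFM4-knockout (red) and the labelled-active library (blue), 1 library per group, with bars for the 95% counting interval and genes ordered by the log2 fold change of OLFM4-knockout against OLFM4-wild cells. From ZNF382 to ZNF90 at the bottom the red dots lie left of the grey ones, and from ZNF787 to ZNF416 at the top they lie right of them.

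In labelled-active against OLFM4-wild cells, 4 members were above a log2 fold change of 1 (1.81%, against 3.78% of all genes) and 10 below -1 (4.52%, against 6.73%). Library totals gave 4 and 16, no filter 9 and 16, and a mean of at least 5 CPM 1 and 2. Beyond 2 there were 0 above (0.506% of all genes) and 1 below (1.54%). Counting error left the interval wholly above 0 for 54 members (24.4%, against 35.2%) and wholly below 0 for 55 (24.9%, against 28.1%). ZNF296, known from the reprogramming of cells to pluripotency and without the KRAB pattern, had the largest positive value, with 90, 284 and 338 counts, or 4.95, 5.53 and 14.1 CPM, and a log2 fold change of 1.51 (1.17 to 1.87). The labelled-active library was the one high library for it. ZNF470 had 2.97, 3.56 and 7.07 CPM and 1.24 (0.80 to 1.72). ZNF416 was at 2.70, 4.87 and 5.99 CPM and 1.14 (0.67 to 1.65), with OLFM4-wild the lowest. ZNF154, a gene methylated in many tumours and named after its values were seen, had 23, 41 and 73 counts and 1.25 (0.58 to 2.02). Under the line, ZNF121 had 0.96 (0.87 to 1.05), the most precise of these values because of its depth of 1377, 6107 and 3515 counts.

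The 10 lower members included ZNF829, ZNF382 (-1.41), ZNF433 (-1.19), ZNF221 (-1.26) and ZNF442 (-1.18), whose levels in the same OLFM4-wild library are given above. Of these, ZNF382, ZNF221 and ZNF442 were above 1 CPM in OLFM4-wild cells alone. They passed the filter through the library where they were high. ZNF345, next to ZNF790 and named after its values were seen, had 31, 57 and 9 counts and the lowest value, -2.12 (-3.44 to -1.07). Its few counts in the third library leave a wide interval. ZNF569 had 3.96, 2.26 and 1.76 CPM and -1.17 (-1.76 to -0.60). ZNF615 had 6.27, 3.47 and 2.93 CPM and -1.09 (-1.55 to -0.66). ZNF524, a short gene without the KRAB pattern, had 13.6, 10.8 and 6.49 CPM and -1.07 (-1.37 to -0.77), lowest in the labelled-active library. The tenth was ZNF844, named after its values were seen, with -1.01. Exons of ZNF345, ZNF433 and ZNF844 overlap another gene on the same strand, so their counts are uncertain.

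Between OLFM4-knockout and labelled-active cells, 1 member was above a log2 fold change of 1 (0.452%, against 2.95% of all genes) and 5 were below -1 (2.26%, against 3.39%), or 1 and 15 with library totals. Beyond 2 there were none in either direction, against 0.259% of all genes above and 0.175% below. Counting error left the interval wholly above 0 for 49 members (22.2%, against 39.8%) and wholly below 0 for 66 (29.9%, against 28%). The 1 above was ZNF345, at 1.49 (0.53 to 2.76). The 5 below were ZNF154 (-1.93), ZNF296 (-1.35), ZNF568 (-1.12), ZNF382 (-1.10) and ZNF404 (-1.10). ZNF470 stood at -0.99 (-1.30 to -0.68). On the other side of 0, ZNF709 had 0.94 (0.48 to 1.44), ZNF486 0.93 (0.61 to 1.28), ZNF576 0.82 (0.57 to 1.07) and ZNF575 0.80 (0.52 to 1.09). ZNF709 and ZNF576 share exon sequence on their strand with other genes (SRRM5 for ZNF576), which the counting could split. The same holds for ZNF345, ZNF568 and ZNF404.

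Among 12 well-studied members, ZNF208 had no count, ZNF382 and ZNF93 were below -1 as given above, and the other 9 lay between -0.84 and 0.19. ZNF91, which represses the SVA retrotransposons of apes, had 828, 1652 and 897 counts, or 45.6, 32.2 and 37.5 CPM, and a log2 fold change of -0.50 (-0.62 to -0.38) in OLFM4-knockout against OLFM4-wild cells. ZNF274, which binds the ends of zinc finger genes themselves and recruits SETDB1 there, was at 27.2, 31.1 and 34.1 CPM and 0.19 (0.05 to 0.34). The imprinted gene ZNF331 was at 18.8, 20.1 and 20.4 CPM and 0.09 (-0.09 to 0.27), an interval that includes 0. ZNF146 had 0.10 (0.03 to 0.18), ZNF43 had 0.14 (-0.07 to 0.37), ZNF45 had -0.31 (-0.52 to -0.10) and ZNF528 had -0.84 (-1.20 to -0.47). ZNF587 and ZNF417, a pair known to repress endogenous retroviruses, had 0.16 (0.02 to 0.30) and -0.46 (-0.72 to -0.19), but their proteins are 98.1% identical and the split of reads between them is uncertain.

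The members fell into 16 blocks along the chromosome when a gap of over 1 Mb to the next member was taken as a border, and the 7 blocks with at least 10 members, numbered from the short arm's end, held 228 of the 249. Block 16, at chr19:55476617-58481230, was the largest, with 59 members, 54 of them tested, and had a median of 0.05 in OLFM4-knockout against OLFM4-wild cells, under the 0.10 of all genes. The medians of the other 6 were -0.24 in block 2 (15 tested), -0.17 in block 3 (23), -0.28 in block 5 (27), -0.21 in block 9 (25), -0.05 in block 12 (22) and -0.06 in block 15 (37). In block 5, at chr19:19668796-24129968, 5 of the 27 members tested were above 0. The quartiles of the 7 blocks overlapped, and each median was smaller in size than the 0.35 by which TMM raised all values over library totals. The other protein-coding genes within the blocks had medians of 0.23 in block 16 (24 tested), 0.21 in block 2 (31 tested) and -0.56 in block 9 (5 tested). In block 3 (8 tested), block 12 (21) and block 15 (3) they were 0.11, 0.09 and -0.49, and the 1 tested in block 5 had -0.55. By their symbols, 3 of those tested in block 9 and 5 in block 16 were themselves of zinc finger families such as ZFP or ZSCAN.

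The 9 members below -1 stood in 4 of the blocks. ZNF382, ZNF829 and ZNF568 lay within block 9, at chr19:36182276-37817300, ZNF93 and ZNF90 in block 5, ZNF433 and ZNF442 in block 3 and ZNF404 and ZNF221 in block 12. None of the members tested in blocks 2, 15 and 16 was among them. With 4.07% of all members tested below -1, against 7.56% of all genes, few were to be found in any block. In block 9 they did not form one run, and the members between them ranged from -0.92 (ZNF461) to 0.24 (ZNF790). For labelled-active against OLFM4-wild cells, the block medians ran from -0.30 in block 3 to 0.18 in block 15, where 29 of 37 tested members were above 0, beside 53.9% of all genes. TMM added 0.11 to these values over library totals.

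**Figure D3:**
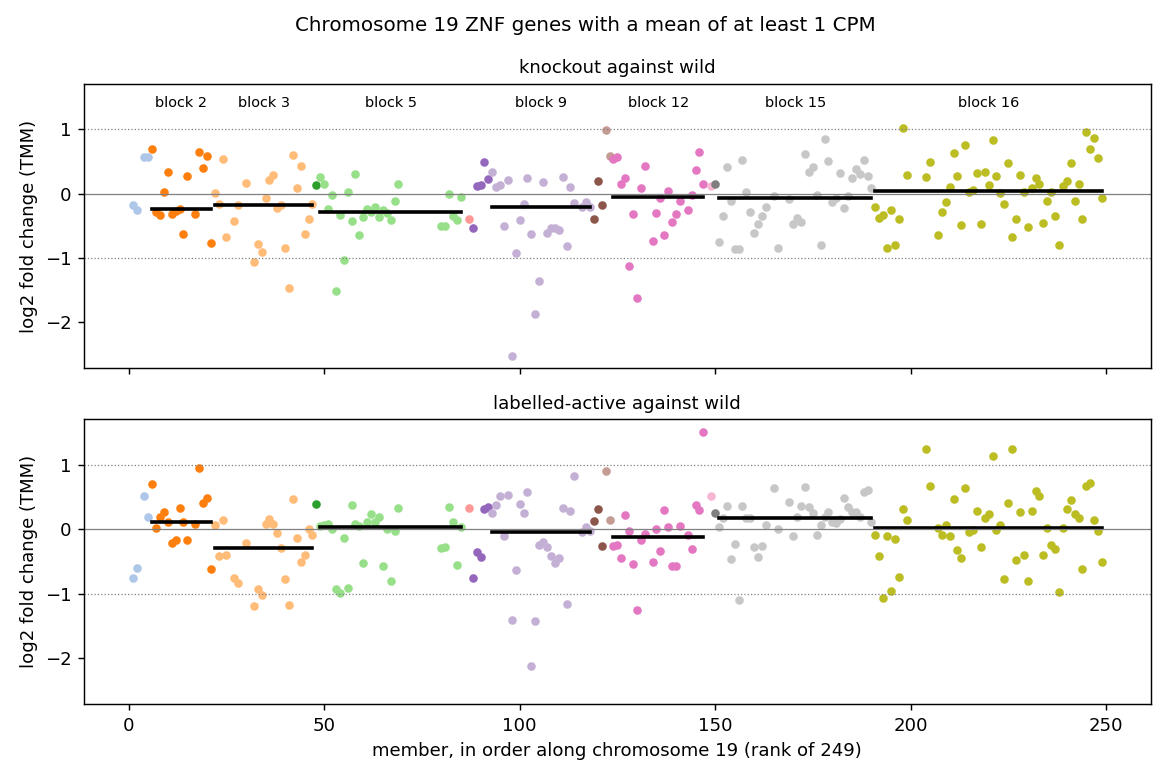
Log2 fold change (y axis, TMM scale) of the 221 members with a mean of at least 1 CPM, in their order along chromosome 19 (x axis, rank of 249), for OLFM4-knockout (top) and the labelled-active library (bottom) against OLFM4-wild cells. Colours separate blocks, black lines are medians of the blocks with at least 10 members, and dotted lines mark -1 and 1. In the top panel the points below -1 lie in blocks 3, 5, 9 and 12.

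Divergent starts, within 1000 bp of each other or overlapping by up to 500 bp, were shared by 4 pairs of members, and all 4 pairs lie in block 9. ZNF585B and ZNF383 had nearly the same log2 fold change in OLFM4-knockout against OLFM4-wild cells, -0.54 (-0.73 to -0.35) and -0.53 (-0.77 to -0.29). ZNF829 and ZNF568 were both below -1. ZNF529 and ZNF382 stood 0.21 against -2.52, and ZNF790 and ZNF345 0.24 against -0.63. Reads were counted by strand, so that overlap on opposite strands does not mix the partners' counts.

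Promoter windows were found for 218 of the 249 members. Their median GC content was 59.8%, close to the 58.7% of all 35116 windows, and they held a median of 20 CpG dinucleotides, against 14. CCGGAA was in 56.0% of the members' windows and 17.2% of all windows, and CCAAT in 54.1% against 34.6%. CGCG was in 73.4% against 49.9%. CACGTG and TATAAA were less frequent, in 4.13% against 7.26% and in 1.83% against 11.5%, and the palindromic NRF1 motif was in 2.29% against 1.24%. All were searched on both strands, none of them contains another, and a match of letters does not show that a factor binds. Members with CCGGAA had a median of -0.04 on the log2 scale in OLFM4-knockout against OLFM4-wild cells (112 tested) and those without it -0.14 (87 tested). The medians with and without CACGTG were 0.15 (9 tested) and -0.11, with and without CGCG -0.04 and -0.19 (52 tested), and with and without CCAAT -0.11 and -0.07. TATAAA and the NRF1 motif were each in 4 members tested, with medians of -0.18 and -0.04.

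The windows of block 5 resembled one another. Aligned end to end with that of ZNF91, the other 28 had a median identity of 81.8% (61.0% to 88.0%), against 59.7% (53.0% to 67.3%) for the 189 members' windows outside the block. Windows of like identity belonged to genes at different levels. ZNF208, the most like at 88.0%, had 0 counts in every library. ZNF254, at 87.0% and chosen after its values were seen, had 451, 1223 and 610 counts, or 24.8, 23.8 and 25.5 CPM. In the sequences printed above, all 3 windows hold CCAAT and the TTCCGG form of the ETS letters near their 3′ end. ZNF724, at 81.0%, had the highest level per kilobase of the block, 4.998 CPM per kilobase, and the 5 windows whose genes did not reach 1 CPM lay between 77.0% and 88.0%. The windows contain the first bases of the transcript but not the rest of the gene, and methylation was not measured.

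**Figure D4:**
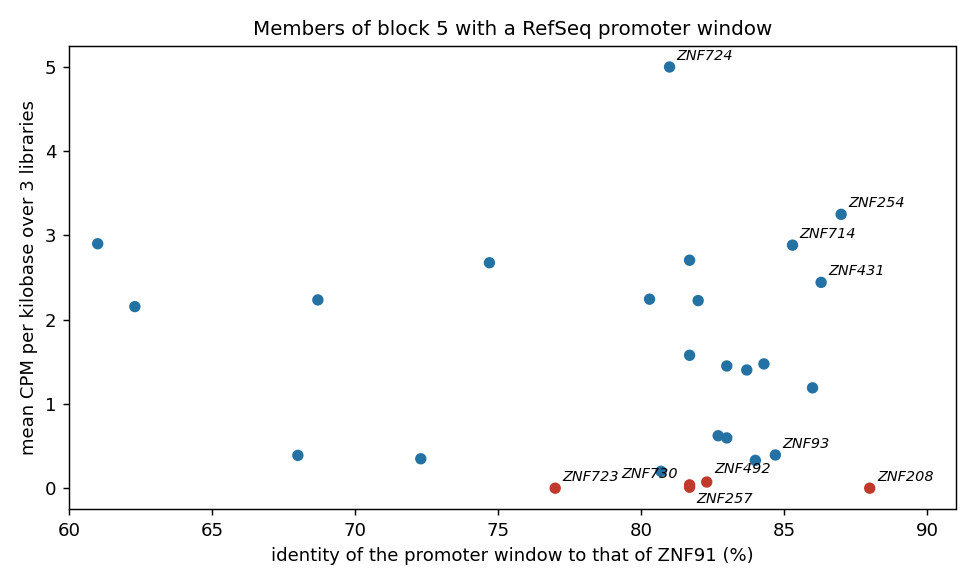
Mean level over the 3 libraries (y axis, CPM per kilobase) against the identity of the promoter window to that of ZNF91 (x axis, %), for the 28 other members of block 5 with a window. Blue dots have a mean of at least 1 CPM and red dots do not. ZNF208 and ZNF254 stand close to each other on the x axis, at 88.0% and 87.0%, with levels of 0 and 3.25 CPM per kilobase. ZNF254 was chosen after its values were seen.

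Exon length went with the difference between OLFM4-knockout and the other libraries for genes in general, and for the members in part. Genes tested were divided at 2291, 4457 and 7320 bp into 4 groups, which held 12, 60, 95 and 54 members from the shortest to the longest. In OLFM4-knockout against OLFM4-wild cells the medians of all genes in these groups were 0.27, 0.20, 0.07 and -0.09, and those of the members -0.11, -0.01, -0.07 and -0.24. The members were below all genes of their own length in each group. ZNF genes on other chromosomes had 0.58, 0.18, -0.04 and -0.21, below all genes in every group but the shortest. Spearman's rho with length was -0.22 over 16393 genes and -0.09 over the 221 members, a description across genes that share the same libraries. In OLFM4-knockout against labelled-active cells the members' medians were 0.25, -0.02, -0.04 and -0.26, beside 0.25, 0.19, 0.05 and -0.12 for all genes, and here rho was -0.28 for the members and -0.26 for all genes. In labelled-active against OLFM4-wild cells rho was 0.15 and -0.02.

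**Figure D5:**
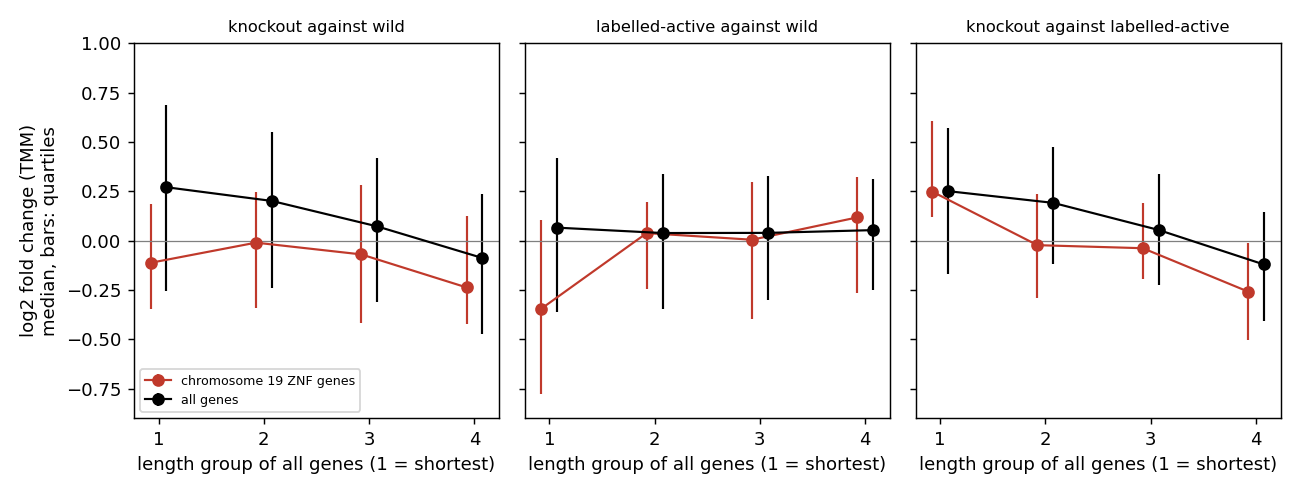
Median log2 fold change (y axis, TMM scale, bars between the quartiles over genes) in 4 groups of exon length (x axis, 1 shortest) for chromosome 19 ZNF genes (red) and all genes (black) in the 3 comparisons. In the left panel the red medians, -0.11, -0.01, -0.07 and -0.24, lie below the black ones in each group.

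The level of a member went with its value as well. In OLFM4-knockout against OLFM4-wild cells the median was -0.68 for the 11 members with a mean of 1 to 2 CPM, -0.18 for the 54 with 2 to 5 CPM, -0.16 for the 55 with 5 to 10 CPM and 0.06 for the 101 with 10 CPM or more. All genes had -0.29, -0.13, 0.01 and 0.17 in the same bins, so the medians of both sets were higher at higher levels and the members lay lower in each bin. Against protein-coding genes alone this did not hold, since these had -0.27 at 2 to 5 CPM, below the members. ZNF genes on other chromosomes had -1.31, -0.16, -0.19 and 0.01, so they too lay below all genes in each bin. The OLFM4-knockout library was 3.61 times as deep as the OLFM4-wild library, and the part of depth in this trend was not tested. With the libraries thinned to one total the median over all members tested was again -0.11. The level bins were not repeated on thinned libraries, so that median does not bear on the trend. ZNF382, ZNF221 and ZNF442, which make up 3 of the 9 members below -1, had means under 2 CPM and were above 1 CPM in OLFM4-wild cells alone, so they passed the filter through the library where they were high.

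Levels per kilobase differed by the KRAB A box pattern, while the median differences between libraries were similar with and without it. Only the coding sequence of each gene's Ensembl canonical transcript was searched, so a pattern in another transcript would be missed. The pattern of the KRAB A box was found in 209 members and not in 40. Of these, 188 and 33 were tested, with median levels of 1.56 and 3.20 CPM per kilobase. Without division by length the median levels were 8.89 and 10.3 CPM, and the median exon lengths were 5980.5 and 3897 bp. The median log2 fold changes of members with and without the pattern were -0.11 and -0.07 in OLFM4-knockout against OLFM4-wild cells. All 9 members below -1 had the pattern, as did 188 of the 221 members tested, so these 9 do not set it apart. ZNF787, the 1 above 1, had none. The number of C2H2 finger patterns ranged from 0 to 36, with a median of 12, and ZNF208 had the 36. Members with up to 8, 9 to 12, 13 to 16 and 17 or more had medians of -0.09, -0.02, -0.23 and -0.15. Their median levels were 2.02, 1.67, 1.51 and 2.03 CPM per kilobase. For 93 members an exon overlapped another gene on the same strand, with a median of -0.09 among the 84 tested, against -0.12 for the 137 tested without overlap. A protein of at least 90% identity existed for 10 members, among them ZNF585A and ZNF585B (94.5%), ZNF324 and ZNF324B (91.1%) and ZNF440 and ZNF69 (90.4%).

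The corepressors through which KRAB proteins act were expressed in all libraries. All 40 genes found from a list of TRIM28, its SETDB1, HP1 and NuRD partners, the HUSH complex and DNA methyltransferases had a mean of at least 1 CPM. In OLFM4-knockout against OLFM4-wild cells their median was 0.05, 24 were above 0, 0 were above 1 and 1 was below -1, beside a median of 0.10, 56.7% above 0, 5.77% above 1 and 7.56% below -1 for all genes. TRIM28, which lies on chromosome 19 itself, had 3790, 17407 and 6507 counts, or 209, 339 and 272 CPM, lowest in OLFM4-wild cells, with a log2 fold change of 0.70 (0.65 to 0.75). SETDB1 was at 45.2, 47.7 and 41.1 CPM and 0.08 (-0.04 to 0.19). GATAD2B, a subunit of the NuRD complex, was the 1 below, at 77.0, 29.1 and 75.04 CPM and -1.40 (-1.51 to -1.30), low in OLFM4-knockout cells alone. In labelled-active against OLFM4-wild cells the corepressors' median was 0.19 with none past 1 or -1. All genes had a median of 0.05, with 3.78% above 1 and 6.73% below -1. In OLFM4-knockout against labelled-active cells the corepressors' median was -0.21, beside 0.08 for all genes. Of the 40, 0 were above 1 and 2 below -1, against 2.95% and 3.39% of all genes. The 2 were GATAD2B (-1.36) and CBX5 (-1.05), which encodes the heterochromatin protein HP1 alpha.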

How the data were processed

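Total RNA of 3 RWPE1 samples, which the study's methods describe as bulk cells sorted on GFP, was sequenced after ribosomal RNA depletion with a stranded kit. The deposited table holds whole-number counts per gene. The authors aligned read pairs to GRCh38 with HISAT2 and counted uniquely mapped, reversely stranded pairs with featureCounts. No per-sample column was left unassigned (0).

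Positions, gene types and exon lengths came from GENCODE 44, which matched 56948 gene IDs, and promoter windows from RefSeq. Library sizes were scaled with TMM (edgeR 4.0.16) over all 58037 genes. Log2 fold changes used an offset of 0.5 counts, and their 95% intervals came from the exact conditional binomial distribution of 2 counts. Genes averaging under 1 CPM were left out of fold counts. With 1 library per group, limma and edgeR tests have no residual degrees of freedom, so "called" means past a log2 fold change of 1 or -1. Protein identity came from blastp (90% over 80% of the length), and the scripts were tested on simulated data.

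The members and lists were chosen with earlier results of these data known. Text names the 10 members with the highest CPM per kilobase and those with the largest differences among members of at least 2 CPM. Those at 0 and a list of well-studied members and corepressors are named too. Other members, such as ZNF724, ZNF461, ZNF790, ZNF585B and ZNF383, are named outside these rules. ZNF254 was also named outside them, after its values were seen. Alternatives were DESeq2 1.42.0 size factors, upper quartile factors, totals, other offsets, filters, thinning and subsets of members. The sum over luminal markers is not reported here.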

Additional observations from a re-analysis of the deposited data

How the results depend on the processing

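With 1 library per group no spread between replicates was known, library and condition cannot be told apart, and leaving out replicates was not possible. No paired analysis was possible because each group has 1 library. Of 160 values for the members as a whole, 108 stayed within the limits set for them and 52 moved. The limits were 1.5 times for a count, the order-statistic interval over members for a median and the counting interval for a sum. For named members, 884 of 950 values stayed within their counting interval. Reversal was counted only for values past a log2 fold change of 1 or -1, and 0 were reversed. A smaller value that changed sign was not counted as reversed. The cause of each move below was not tested unless the alternative keeps fewer genes.

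In OLFM4-knockout against OLFM4-wild cells, library totals gave a median of -0.46, 0 members above and 27 below the 2-fold line and a summed log2 ratio of -0.32. DESeq2 size factors gave 2 above, upper quartile factors 0 above and a summed ratio of -0.0526, and protein-coding library sizes 0 above and -0.0498. Thinning gave a summed ratio of -0.00716. With no filter there were 2 above and 19 below, with at least 10 counts 15 below, and with a mean of at least 5 CPM 1 below. Members with the KRAB pattern gave 0 above and a summed ratio of 0.00627, and those without overlap 5 below and 0.0515. Without the labelled-active library, chosen after seeing the data, there were 3 above and the summed ratio was 0.0838.

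In labelled-active against OLFM4-wild cells, library totals gave a median of -0.0745, 16 below and a summed ratio of 0.0105. The summed ratio was 0.15 with DESeq2 size factors, 0.14 with upper quartile factors, 0.10 with protein-coding library sizes and 0.0772 over members with the KRAB pattern. With no filter there were 9 above and 16 below, with at least 10 counts 8 above, and with a mean of at least 5 CPM 1 above and 2 below.

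In OLFM4-knockout against labelled-active cells, library totals gave a median of -0.30, 15 below and a summed ratio of -0.33. Upper quartile factors gave -0.16, 8 below and -0.20, and protein-coding library sizes -0.12, 8 below and -0.15. With no filter there were 2 above and 12 below, with at least 10 counts 10 below, and with a mean of at least 5 CPM 0 above and 1 below. Thinning gave 2 above and a summed ratio of -0.12, members with the KRAB pattern 0 above and -0.071, and members without overlap 0 above and 3 below. Depth limits the members under 2 CPM most, whose counting intervals are the widest.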
